A study of Mus musculus with 6 samples.

Results

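The genes described here encode the enzymes that break down fatty acids inside mitochondria. They are the 10 rows of the deposited gene table, out of 13105, whose symbol is Cpt1b, Cpt2, Acadvl, Acadl, Acadm, Hadha, Hadhb, Acaa2, Etfa or Etfdh. They are picked out by symbol, and all 10 passed the filter on low values. In biceps that had lost its nerve for 3 weeks, 5 of the 10 fell (Cpt1b, Acadvl, Acadm, Acaa2 and Etfdh) and 0 rose. Of all genes tested, 4.5% fell and 15.7% rose. The call of Etfdh was the least firm and was lost when some of the libraries were left out. Acaa2 fell most by fold, to 38.1 ± 3.37 TPM in denervated muscle, against 92.4 ± 2.32 TPM in control muscle (SD, n = 3 each). Both subunits of the trifunctional protein, Hadha and Hadhb, kept nearly the same TPM in denervated and control muscle and were called lower only after the libraries were rescaled to a common median gene.

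Beta-oxidation shortens a fatty acid by repeated rounds of the same reactions and passes the released electrons to the respiratory chain. A fatty acid enters the matrix bound to carnitine, is oxidized by an acyl-CoA dehydrogenase matched to its chain length, is hydrated and oxidized again, and is cut by a thiolase that releases acetyl-CoA. Skeletal muscle uses the pathway at rest and in long exercise, and oxidative fibres carry more of it than glycolytic fibres.

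The study profiled total RNA of whole biceps from 3 mice of the outbred CD-1 stock. Per the labels, the brachial plexus (C5 to T1) of one forelimb was removed by excision when the mice were 5 days old (postnatal day 5), and the muscles were taken at postnatal day 26. The 3 denervated muscles came from the operated side, and the 3 contralateral control muscles came from the other forelimb of the same mice, so the controls come from operated animals. A library holds all cells of the muscle, and in such bulk samples fewer cells of a type and less RNA per cell cannot be told apart. Nothing in the sources used here gives a sex or strain beyond CD-1.

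The deposited values were read as log2(TPM + 1), where TPM is an abundance per transcript length that sums to a fixed total in a library, so it can be compared between genes. Of 12268 genes tested, the median gene stood 0.71 higher on this log2 scale in denervated muscle, and 8580 genes were called higher and 552 lower, so 93.96% of the calls were higher. Each library was then also divided by its median ratio to the geometric mean of the libraries, which was 1.59, 1.27 and 1.27 in denervated replicates 1 to 3 and 0.720, 0.785 and 0.693 in control replicates 1 to 3. After this median-of-ratios scaling the median gene stood at 0.01, with 1922 genes higher and 2280 lower and 45.74% of the calls higher. The deposited scale asks for a gene's share of the transcript pool and the scaled one for its place relative to the median gene. Rose and fell are used only of genes called in the same direction on both, by limma with Benjamini-Hochberg adjustment at 0.05. No read counts are in the table, and the depth of single values is unknown. Per the labels, each library was sequenced to at least 35 to 40 M reads. Of the muscle fibre markers, the most abundant was Acta1, skeletal actin, which measured 5150.1 ± 706 TPM in denervated and 7980.2 ± 508 TPM in control muscle (SD, n = 3 each).

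Of the 10 members, 5 were called lower on the deposited scale, beside 4.5% of all genes tested, and these 5 were also called lower on both scales, where the share of all genes is the same 4.5%. None was called higher on the deposited scale, beside 69.9% of all genes, none after scaling, beside 15.7%, and so none on both, beside 15.7%. After scaling, all 10 were called lower, beside 18.6% of all genes. The 3 denervated libraries lay below the 3 control libraries without overlap for 5 members on the deposited scale, beside 4.96% of all genes, and for 10 members after scaling, beside 24.4%. The median log2 fold change of the members was -0.29 on the deposited scale and -1.16 after scaling, beside 0.71 and 0.01 for all genes tested. In the authors' deposited table the same 5 members have a negative fold with an adjusted p under 0.05, beside 3.66% of all genes listed there.

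**Figure D1:**
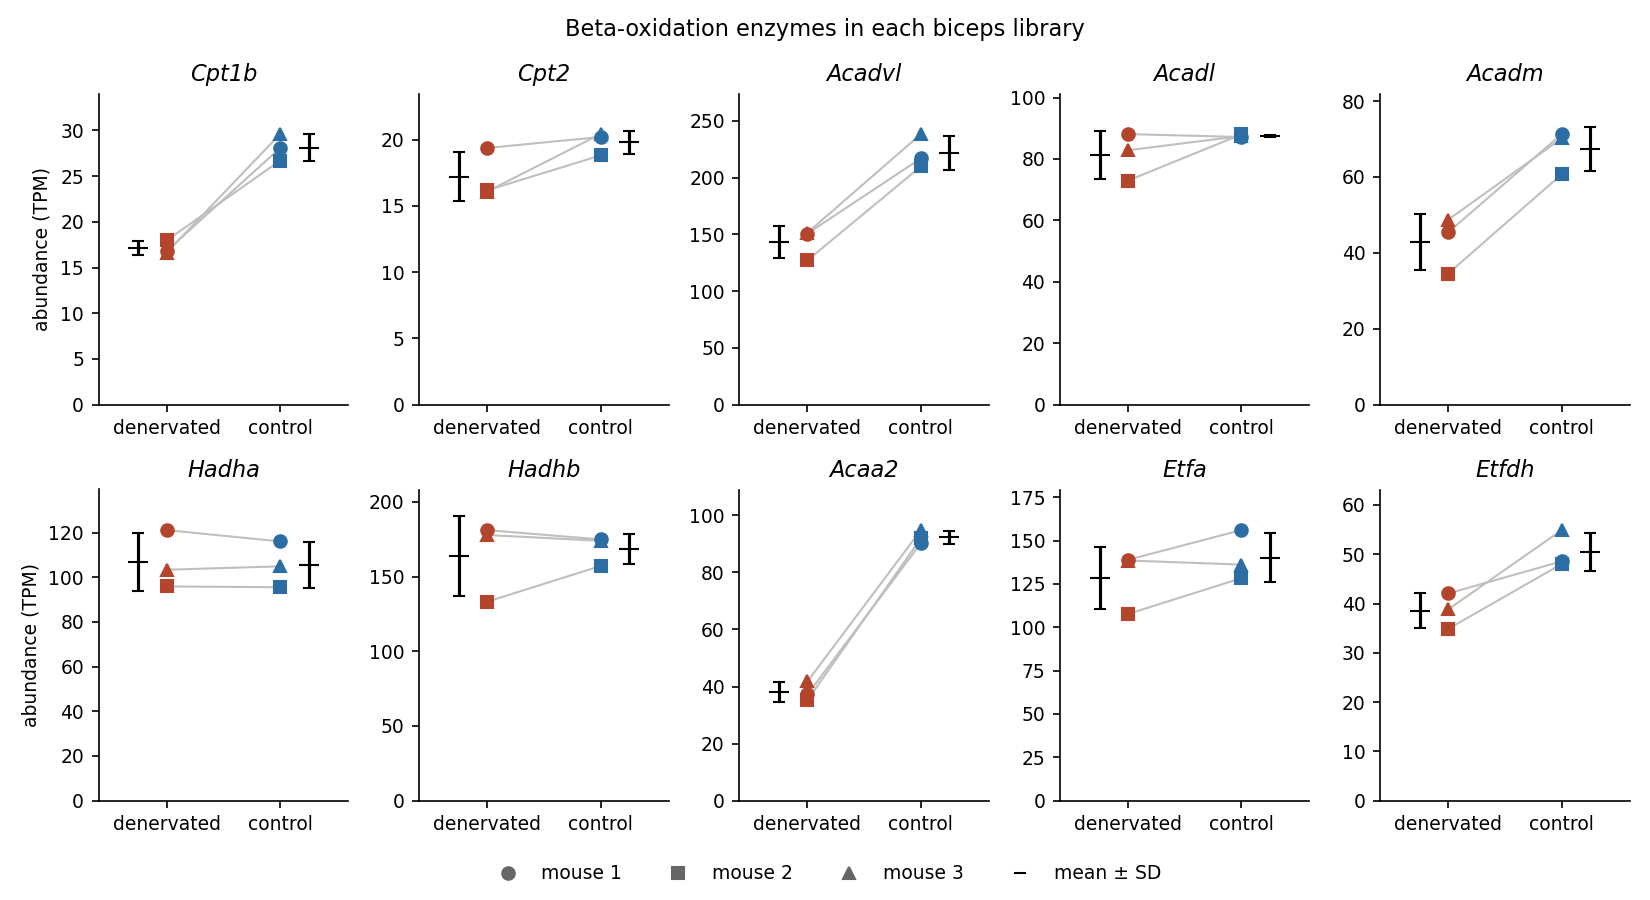
Abundance in TPM (vertical axes, from 0) of each member in the 3 denervated and 3 control biceps libraries, with grey lines joining both muscles of a mouse and bars giving the mean ± SD. Acaa2 has the largest fold change, with 35.2 to 41.8 TPM in denervated and 90.3 to 94.8 TPM in control libraries, while the groups of Hadha and Hadhb overlap.

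The carnitine shuttle is represented by Cpt1b, the muscle form of carnitine palmitoyltransferase 1, which loads fatty acids onto carnitine at the outer membrane, and by Cpt2, which returns them to coenzyme A at the inner membrane. Cpt1b (ENSMUSG00000078937) lies at chr15:89416405-89425863 on the minus strand (GENCODE M21, GRCm38). It measured 16.8, 18.0 and 16.6 TPM in the denervated muscle of mice 1, 2 and 3, against 28.1, 26.7 and 29.6 TPM in their control muscle. All 3 denervated libraries were lower than every control library. The log2 fold change was -0.68 (95% interval -0.98 to -0.39, limma adjusted p = 0.00155) on the deposited scale and -1.54 (adjusted p = 0.000183) after scaling, so Cpt1b fell. Of the 31-base words of its transcripts, 79.7% also occur in Gm44502, an annotated gene on the same strand that covers the whole of Cpt1b, so reads of both cannot be separated by sequence over most of Cpt1b. Gm44502 was not analysed here.

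Cpt2 (ENSMUSG00000028607, chr4:107903981-107923610, minus strand) measured 19.4, 16.2 and 16.1 TPM in the denervated muscle of mice 1, 2 and 3, against 20.2, 18.8 and 20.4 TPM in their control muscle. The denervated library of mouse 1 lay among the control values, and the other two denervated libraries lay below them. Within each mouse the denervated muscle was the lower one, by log2 differences of -0.06, -0.21 and -0.33. Its log2 fold change on the deposited scale was -0.20 with a 95% interval of -0.51 to 0.12 and did not pass the test (adjusted p = 0.226). After scaling it was -1.05 (adjusted p = 0.000284). Within a library, the log2 ratio of Cpt1b to Cpt2 averaged -0.00 ± 0.17 in denervated and 0.48 ± 0.03 in control libraries (SD, n = 3 each), with no overlap and a difference of -0.49. These ratios carry the pseudocount of 1, as log2 of (TPM + 1) over (TPM + 1), so scaling between libraries touches them only through the pseudocount. The exact two-sided permutation p of the difference was 0.1, the smallest that 3 against 3 libraries allow, and 0.155 after adjustment over the 17 ratios computed. The shuttle enzymes were nearly equal in TPM in denervated muscle, while Cpt1b exceeded Cpt2 in all 3 control libraries.

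Of shuttle genes outside the 10, both chosen after their values were seen, Cpt1a, the liver form of the first enzyme, was scarce, with 3.95, 3.48 and 3.18 TPM in denervated and 1.35, 2.47 and 1.96 TPM in control libraries. It was called higher on the deposited scale alone (log2 fold change 0.65, adjusted p = 0.0109), and its scaled difference was 0.00. Slc25a20, the carrier that exchanges acylcarnitine for carnitine across the inner membrane, measured 16.0, 14.9 and 16.5 TPM in denervated and 21.8, 17.1 and 23.6 TPM in control libraries. It did not pass the test on the deposited scale (-0.37, adjusted p = 0.0579) and was called lower after scaling (-1.22, adjusted p = 0.0018).

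The acyl-CoA dehydrogenases carry out the first oxidation of each round. Acadvl acts on very long chains at the inner membrane, and Acadl and Acadm act on long and medium chains in the matrix. Acadvl (ENSMUSG00000018574, chr11:70010183-70015411, minus strand) measured 151, 127 and 152 TPM in the denervated muscle of mice 1, 2 and 3, against 217, 210.0 and 238 TPM in their control muscle. Every denervated library was lower than every control library. It fell, with a log2 fold change of -0.63 (95% interval -0.94 to -0.32, adjusted p = 0.00283) on the deposited scale and -1.53 (adjusted p = 0.000159) after scaling. Of its 31-base words, 33.2% occur in Dvl2, a gene on the opposite strand that overlaps it by 2119 bases. Dvl2 measured 1.5 to 2.84 TPM in denervated and 0.822 to 1.20 TPM in control libraries.

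Acadm (ENSMUSG00000062908, chr3:153922357-153944632, minus strand) measured 45.4, 34.6 and 48.7 TPM in the denervated muscle of mice 1, 2 and 3, against 71.3, 60.7 and 70.2 TPM in their control muscle. The groups did not overlap, and mouse 2 was the lowest of its group on both sides. It fell, with a log2 fold change of -0.65 (95% interval -1.02 to -0.29, adjusted p = 0.00562) on the deposited scale and of -1.53 (adjusted p = 0.000422) after scaling. Acadl (ENSMUSG00000026003, chr1:66830839-66863277, minus strand) differed from both. It measured 88.1, 72.9 and 82.8 TPM in the denervated muscle of mice 1, 2 and 3, against 87.1, 88.0 and 87.5 TPM in their control muscle. The 3 control libraries nearly coincided, and the denervated libraries lay on both sides of them. Its log2 fold change was -0.11 with a 95% interval of -0.41 to 0.19 on the deposited scale (adjusted p = 0.461) and -1.0 after scaling (adjusted p = 0.000272).

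The contrast among the dehydrogenases can also be written as ratios within each library. These use the same values, so their group differences restate the deposited fold changes and are no separate support. The log2 ratio of Acadvl to Acadl averaged 0.81 ± 0.05 in denervated and 1.33 ± 0.10 in control libraries, and that of Acadm to Acadl averaged -0.92 ± 0.15 in denervated and -0.38 ± 0.13 in control libraries (SD, n = 3 each). Neither ratio overlapped between the groups, and the differences of -0.52 and -0.54 each had an exact two-sided permutation p of 0.1, the smallest possible (0.155 adjusted). The ratio of Acadvl to Acadm averaged 1.73 ± 0.12 in denervated and 1.71 ± 0.10 in control libraries, a difference of 0.02 (exact p = 0.9). Relative to Acadl, the transcripts of the very long chain and medium chain enzymes were scarcer in denervated muscle by similar amounts.

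Promoter windows of the members were searched for the half-site AGGTCA, the unit that nuclear receptors such as the peroxisome proliferator-activated and estrogen-related receptors bind. The windows come from RefSeq on GRCm38.p6 and span 250 bases before to 50 bases after a gene's start, which can differ from the end of the GENCODE gene. The window of Etfdh lies wholly inside its GENCODE gene, so its matches are not upstream of that annotation. Most of the window of Hadha lies inside Hadha. A window was found for 8 of the 10 members, not for Cpt1b or the thiolase. The half-site occurred on either strand in 2 of these 8, Acadvl and Acadm, not in the window of Etfdh, and in 16.3% of 32851 windows of all genes. Its form with one more A in front, AAGGTCA, is part of the same match in Acadm and occurs in 4.72% of all windows. A direct repeat of the half-site with 1 base between was in none of the 8 and in 0.0396% of all windows. The motif GCATGCGC, the core that nuclear respiratory factor 1 binds, occurred in Acadm, Etfa and Etfdh, in 3 of 8 member windows and 2.71% of all windows. The CCAAT box (CCAAT) occurred in Etfa and Etfdh, 2 of 8, and in 37.4% of all windows, and the GC box (GGGCGG) in Acadl, Cpt2, Etfdh, Hadha and Hadhb, 5 of 8, and in 35.7% of all windows. The GC box of Hadha is also a GC box of Hadhb, since it lies in bases that both windows share, so the 5 are not independent. All motifs were searched on both strands. They were chosen after the sequences were seen, and a match is a description of letters, not of binding. The windows of Acadm (chr3:153944594-153944893), Acadvl (chr11:70015379-70015678) and Etfdh (chr3:79628718-79629017), all on the minus strand, are shown because these genes fell and hold a match to one of the motifs. The window of Hadhb (chr5:30155003-30155302, plus strand) is shown because it is shared with a second member. Capitals mark AGGTCA on either strand in Acadm and Acadvl, 2 overlapping matches of GCATGCGC in Etfdh, and in Hadhb the 228 bases that also belong to the window of Hadha on the other strand.
Acadm: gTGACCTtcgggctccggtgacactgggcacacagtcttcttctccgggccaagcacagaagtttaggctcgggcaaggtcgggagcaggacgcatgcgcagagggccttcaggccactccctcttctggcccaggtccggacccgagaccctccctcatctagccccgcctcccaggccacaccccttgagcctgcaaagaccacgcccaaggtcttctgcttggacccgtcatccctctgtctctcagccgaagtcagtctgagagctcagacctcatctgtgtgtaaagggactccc
Acadvl: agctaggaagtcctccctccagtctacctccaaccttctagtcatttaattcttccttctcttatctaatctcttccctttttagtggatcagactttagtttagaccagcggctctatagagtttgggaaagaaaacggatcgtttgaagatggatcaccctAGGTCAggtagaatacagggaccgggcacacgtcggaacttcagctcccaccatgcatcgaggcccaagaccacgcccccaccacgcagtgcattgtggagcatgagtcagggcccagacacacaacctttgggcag
Etfdh: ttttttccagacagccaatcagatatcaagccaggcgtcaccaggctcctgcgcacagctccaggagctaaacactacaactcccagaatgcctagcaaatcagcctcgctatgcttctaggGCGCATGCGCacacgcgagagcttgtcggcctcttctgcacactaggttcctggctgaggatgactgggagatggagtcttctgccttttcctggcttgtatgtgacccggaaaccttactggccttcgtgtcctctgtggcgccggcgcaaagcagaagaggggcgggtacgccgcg
Hadhb: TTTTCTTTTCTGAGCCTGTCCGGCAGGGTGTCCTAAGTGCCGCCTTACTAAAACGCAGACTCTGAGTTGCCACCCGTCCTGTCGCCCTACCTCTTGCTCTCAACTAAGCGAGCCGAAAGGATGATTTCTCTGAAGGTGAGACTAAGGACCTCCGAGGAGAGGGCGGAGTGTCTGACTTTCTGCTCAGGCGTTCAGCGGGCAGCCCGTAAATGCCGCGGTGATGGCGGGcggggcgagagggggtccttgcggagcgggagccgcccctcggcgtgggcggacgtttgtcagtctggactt

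The trifunctional protein, which performs the last 3 reactions of each round on long chains, is built from Hadha, the subunit with the hydratase and hydroxyacyl-CoA dehydrogenase activities, and Hadhb, the subunit with the thiolase activity. Their genes stand head to head, Hadha at chr5:30118304-30155162 on the minus strand and Hadhb at chr5:30155248-30184593 on the plus strand, with 85 bases between the annotated genes, and the 228 bases in capitals above lie in the windows of both. Hadha (ENSMUSG00000025745) measured 121, 95.9 and 103 TPM in the denervated muscle of mice 1, 2 and 3, against 116, 95.5 and 105 TPM in their control muscle. Hadhb (ENSMUSG00000059447) measured 181, 133 and 178 TPM in denervated and 175, 157 and 174 TPM in control muscle of the same mice. For both subunits the groups overlapped, with mouse 2 lowest on each side. The log2 fold change of Hadha was 0.02 with a 95% interval of -0.31 to 0.35 (adjusted p = 0.927), and that of Hadhb was -0.05 with an interval of -0.40 to 0.30 (adjusted p = 0.77). Differences within those intervals are not excluded.

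After scaling, Hadha measured 76.1, 75.7 and 81.6 scaled TPM in denervated and 161, 122 and 151 scaled TPM in control libraries. On that scale the groups did not overlap, and the log2 fold changes were -0.88 for Hadha (adjusted p = 0.00131) and -0.95 for Hadhb (adjusted p = 0.00195), the 2 smallest differences among the 10. The sign of Hadha therefore depends on the scale. The log2 ratio of Hadha to Hadhb averaged -0.61 ± 0.16 in denervated and -0.67 ± 0.08 in control libraries (SD, n = 3 each), a difference of 0.07 with overlapping groups (exact p = 0.6). Of the 31-base words of Hadhb, 19.5% occur in Gm13910 and 23.7% in any other gene, against 0.674% for Hadha.

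Acaa2, the matrix thiolase that ends each round on medium chains by releasing acetyl-CoA, had the largest fold change of the 10 on both scales. Acaa2 (ENSMUSG00000036880) measured 37.2, 35.2 and 41.8 TPM in the denervated muscle of mice 1, 2 and 3, against 90.3, 92.0 and 94.8 TPM in their control muscle. The groups lay far apart, and each was tight. It fell, with a log2 fold change of -1.26 (95% interval -1.55 to -0.96, adjusted p = 8.06e-05) on the deposited log2 scale, and the difference within mice 1, 2 and 3 was -1.26, -1.36 and -1.16. After scaling it measured 23.4, 27.8 and 33.0 scaled TPM in denervated and 125, 117 and 137 scaled TPM in control libraries, a log2 fold change of -2.14 (adjusted p = 4.6e-05). None of its 31-base words occurs in another gene. By mean TPM among the 10, Acaa2 stood in the eighth place in denervated and in the fifth place in control muscle.

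**Figure D2:**
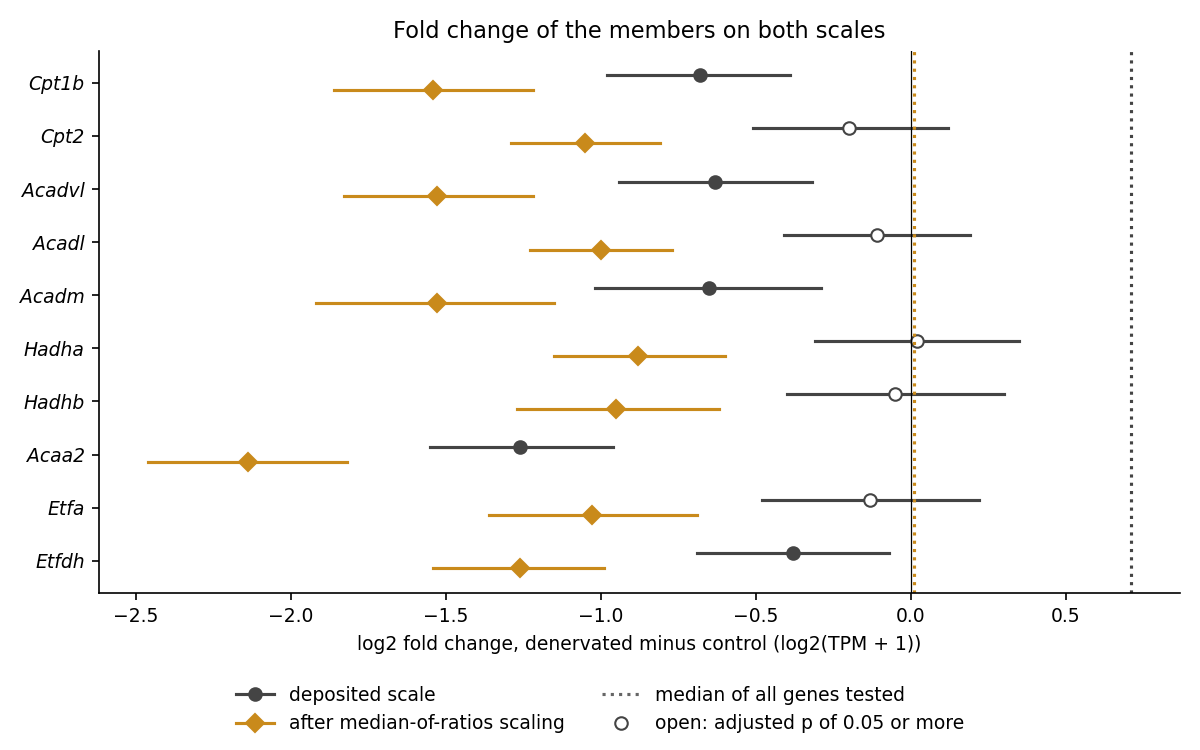
Log2 fold change, denervated minus control (horizontal axis), of each member with its 95% interval on the deposited scale (grey circles) and after median-of-ratios scaling (orange diamonds), open where the adjusted p was 0.05 or more. Dotted lines mark the median of all genes tested, 0.71 on the deposited scale and 0.01 after scaling, and the members spread from -1.26 (Acaa2) to 0.02 (Hadha) on the deposited scale.

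Electrons from the dehydrogenases pass to the electron transfer flavoprotein, of which Etfa is the alpha subunit, and then to Etfdh, the inner membrane enzyme that hands them to ubiquinone. Etfa (ENSMUSG00000032314, chr9:55454508-55512243, minus strand) measured 139, 108 and 139 TPM in the denervated muscle of mice 1, 2 and 3, against 156, 128 and 136 TPM in their control muscle. The groups overlapped. The log2 fold change was -0.13 with a 95% interval of -0.48 to 0.22 (adjusted p = 0.449) on the deposited scale and -1.03 (adjusted p = 0.00149) after scaling. Etfdh (ENSMUSG00000027809, chr3:79603788-79629500, minus strand) measured 42.0, 34.9 and 38.8 TPM in denervated and 48.6, 48.0 and 54.9 TPM in control muscle of the same mice. The groups did not overlap, but the highest denervated and the lowest control value lay close. It fell, with a log2 fold change of -0.38 (95% interval -0.69 to -0.07, adjusted p = 0.031) on the deposited scale and of -1.26 (adjusted p = 0.000232) after scaling. Its call on the deposited scale is the least firm of the 5. It was lost without denervated replicate 2 (adjusted p = 0.105), denervated replicate 3 (0.0787), control replicate 1 (0.0748) or control replicate 3 (0.128), and without both libraries of mouse 2 (0.156) or mouse 3 (0.262). Words of 31 bases shared with other genes made up 10.9% for Etfa and 9.18% for Etfdh, which overlaps 4930579G24Rik on the opposite strand by 422 bases. They made up 6.45% for Acadm and 0 for Cpt2 and Acadl.

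Etfb, the beta subunit that pairs with Etfa, is not among the 10 and was the most abundant of the other mitochondrial beta-oxidation genes by the mean over the 6 libraries. In denervated libraries alone Crat, carnitine acetyltransferase, named after its values were seen, stood above it, at 151, 117 and 158 TPM. Etfb measured 137, 113 and 131 TPM in the denervated muscle of mice 1, 2 and 3, against 233, 176 and 206 TPM in their control muscle. Every denervated library was below every control library, and Etfb fell (-0.68, adjusted p = 0.00335, on the deposited scale and -1.58, adjusted p = 0.000272, after scaling). The log2 ratio of Etfa to Etfb, chosen after the values were seen, was 0.01, -0.07 and 0.08 in denervated and -0.58, -0.45 and -0.59 in control libraries. The alpha and beta subunits were near parity in TPM in denervated muscle, whereas Etfb exceeded Etfa in every control library (difference 0.55, exact p = 0.1, the smallest possible, 0.155 adjusted). Of the 31-base words of Etfb, 49.9% occur in other genes, and 47.3% in Gm45233 alone, so its level is uncertain where kallisto had to divide reads. The log2 ratio of Etfa to Etfdh averaged 1.70 ± 0.11 in denervated and 1.45 ± 0.19 in control libraries, which overlapped (exact p = 0.2). Within mice 1, 2 and 3 this ratio was higher in the denervated muscle by 0.04, 0.20 and 0.51.

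The summed TPM of the 10 members was 841, 676 and 816 in denervated and 1009.5, 925 and 1011 in control libraries of mice 1, 2 and 3. Of that sum, Acaa2 held 4.43% to 5.22% in denervated and 8.94% to 9.94% in control libraries, and Acadvl held 17.9% to 18.8% in denervated and 21.5% to 23.6% in control libraries. Hadhb held 19.7% to 21.8% in denervated and 17% to 17.3% in control libraries, and Hadha held 12.7% to 14.4% in denervated and 10.3% to 11.5% in control libraries. Hadhb was the most abundant member in all 3 denervated libraries and Acadvl in all 3 control libraries. Denervated replicate 2 was the lowest of its group for 8 of the 10 members on the deposited scale and for 4 of 10 after scaling. Shares of one sum are not independent, since a fall of one member raises the share of the others.

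Each member was also set against Cs, citrate synthase, the first enzyme of the tricarboxylic acid cycle, which accepts the acetyl-CoA that beta-oxidation makes. Cs itself fell, to 164 ± 16.2 TPM in denervated, against 262 ± 10.6 TPM in control muscle (SD, n = 3 each; -0.68, adjusted p = 0.00175, deposited scale). The log2 ratios to Cs of Cpt1b, Acadvl and Acadm differed between the groups by -0.01, 0.05 and 0.02, with overlapping libraries (exact p = 1, 0.5 and 1). Within mice, the ratio was higher in the denervated muscle of 1 mouse for Cpt1b, 3 for Acadvl and 1 for Acadm. Only Acaa2 of the 10 lay lower against Cs without overlap, at -2.26, -2.06 and -1.92 in denervated and -1.59, -1.48 and -1.41 in control libraries, a log2 difference of -0.58. A further 6 members lay higher against Cs in every denervated library than in any control library. Their log2 differences were 0.69 for Hadha, 0.62 for Hadhb, 0.57 for Acadl, 0.54 for Etfa, 0.48 for Cpt2 and 0.29 for Etfdh. The share of all genes that lie higher against Cs was not computed. Cs fell while the median gene stood 0.71 higher on the deposited scale, where 10946 of 12268 genes had a positive log2 fold change. The differences restate the deposited fold changes of each member and of Cs and are no separate support. Each of these 7 non-overlapping ratios had an exact two-sided permutation p of 0.1, the smallest that 20 assignments allow, and 0.155 after adjustment over the 17 ratios, so none could pass the threshold in this design. The permutations do not use the pairing of muscles within mice. Each of these 7 ratios had the same direction in all 3 mice, which follows from the lack of overlap and is no further support. A ratio shows that 2 transcripts changed unequally, not that one of them stayed constant.

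**Figure D3:**
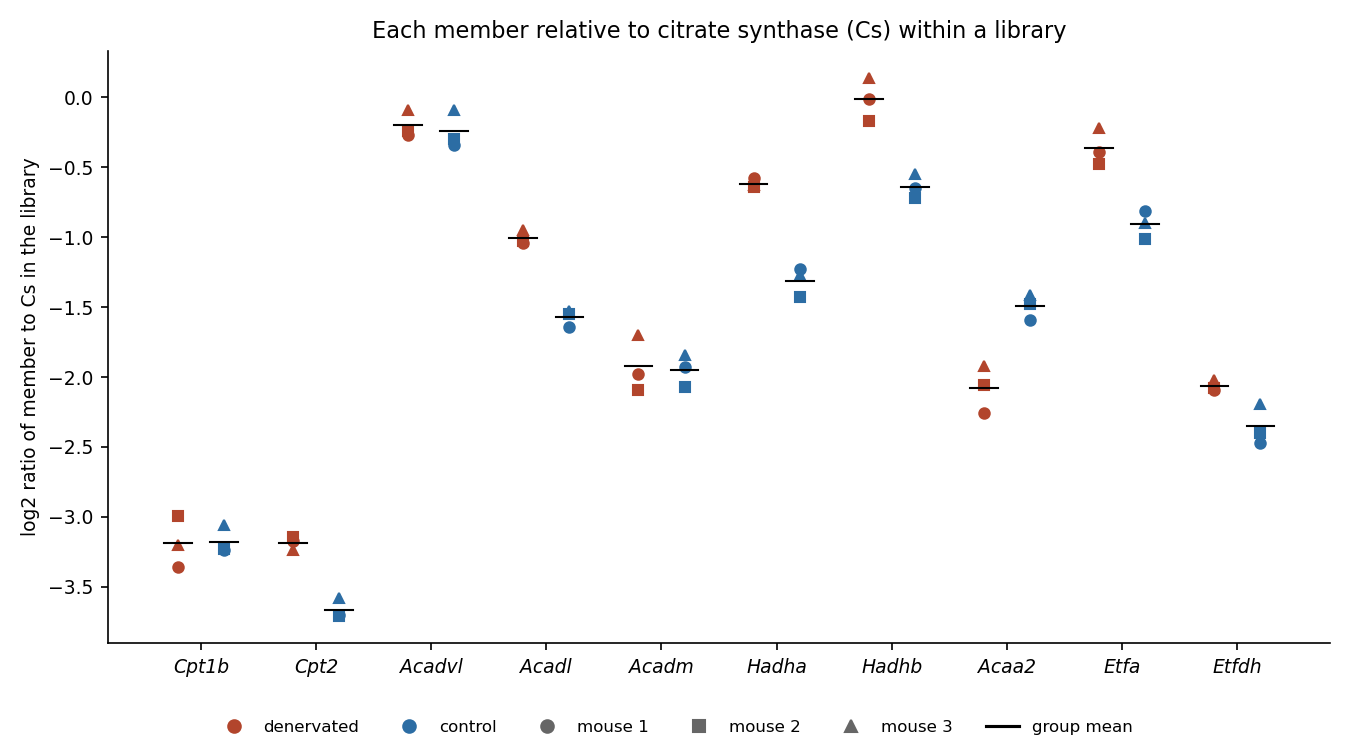
Log2 ratio of each member to Cs (citrate synthase) within a library (vertical axis), for 3 denervated (red, left) and 3 control (blue, right) libraries, with marker shapes for the mice and black bars for group means. Hadha averages -0.62 in denervated and -1.31 in control libraries, Acaa2 averages -2.08 in denervated and -1.50 in control libraries, and the groups of Cpt1b, Acadvl and Acadm overlap.

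Among other genes of mitochondrial fatty acid oxidation, 6 of 22 tested fell, beside 4.5% of all genes tested, and 0 rose, beside 15.7%. The list's median log2 fold change was 0.21 on the deposited scale and -0.61 after scaling. Acot13, an acyl-CoA thioesterase, fell most and measured 69.4, 55.8 and 68.2 TPM in denervated and 158, 141 and 134 TPM in control libraries (-1.16, adjusted p = 0.000188). Hadh, the hydroxyacyl-CoA dehydrogenase for shorter chains, fell to 32.2 ± 2.19 TPM in denervated, against 50.5 ± 4.33 TPM in control muscle (SD, n = 3 each; -0.63, adjusted p = 0.00278). With Etfb these 3 were the largest falls, and Decr1, Echs1 and Eci1 were the other 3 that fell. A further 8 of the 22 were called higher on the deposited scale, beside 69.9% of all genes tested, and 0 after scaling. With the 6 that fell included, 13 of the 22 were called lower after scaling, beside 18.6% of all genes.

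In the peroxisome, where very long and branched chains are shortened, 2 of 15 tested genes fell and 1 rose. Of all genes tested, 4.5% fell and 15.7% rose. The list's median log2 fold change was 0.39 on the deposited scale and -0.38 after scaling. Phyh, which starts the breakdown of phytanic acid, measured 35.4, 33.6 and 35.0 TPM in denervated and 79.4, 80.4 and 73.8 TPM in control libraries and fell (-1.14, adjusted p = 0.000107). Ech1, a dienoyl-CoA isomerase, also fell (-0.54, adjusted p = 0.01). Decr2, the peroxisomal dienoyl-CoA reductase, rose to 7.50 ± 1.28 TPM in denervated, against 2.94 ± 0.403 TPM in control muscle (SD, n = 3 each; 1.11, adjusted p = 0.000532, and 0.37, adjusted p = 0.0395, after scaling). Scp2, a carrier and thiolase, was the most abundant of the list over the 6 libraries, although Phyh and Ech1 stood above it in control libraries. It averaged 93.9 ± 9.34 TPM in denervated and 42.1 ± 3.59 TPM in control muscle (SD, n = 3 each) and was called higher on the deposited scale alone (1.14, adjusted p = 0.000186; 0.25, adjusted p = 0.134, after scaling). Scp2 shares 33.4% of its 31-base words with other genes.

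Of 21 tested regulators of the pathway, 6 fell, beside 4.5% of all genes tested, and 3 rose, beside 15.7%. The list's median log2 fold change was 0.07 on the deposited scale and -0.72 after scaling. On the deposited scale 10 of the 21 were called higher, beside 69.9% of all genes tested. After scaling 11 were called lower, beside 18.6%, with the 6 that fell included. Prkaa2, a catalytic subunit of AMP-activated protein kinase, fell most and measured 13.3, 10.8 and 10.3 TPM in denervated and 29.6, 29.5 and 29.5 TPM in control libraries (-1.30, adjusted p = 0.000115). The other catalytic subunit, Prkaa1, rose and measured 13.2, 10.4 and 12.3 TPM in denervated and 3.89, 4.11 and 3.90 TPM in control libraries (1.38, adjusted p = 0.000104; 0.60, adjusted p = 0.00408, after scaling). Prkaa2 exceeded Prkaa1 in TPM in all 3 control libraries, while in denervated libraries their levels were close.

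Rxrg, a retinoid X receptor, fell to 1.59 ± 0.208 TPM in denervated, against 4.70 ± 0.530 TPM in control muscle (-1.14, adjusted p = 0.000317). Ppargc1a, the coactivator that drives mitochondrial gene programs, fell to 27.6 ± 1.88 TPM in denervated, against 43.6 ± 4.51 TPM in control muscle (-0.64, adjusted p = 0.00295; SD, n = 3 each). Ppara, Esrra and Lpin1 were the other regulators that fell. Pparg, the receptor known for adipocyte differentiation, measured 13.3, 7.19 and 15.6 TPM in denervated and 2.27, 3.38 and 3.77 TPM in control libraries and rose, just inside the threshold after scaling (0.85, adjusted p = 0.0474). Nrip1, a corepressor of nuclear receptors, measured 27.7, 19.2 and 20.3 TPM in denervated and 4.68, 9.33 and 6.93 TPM in control libraries and rose (0.75, adjusted p = 0.023, after scaling). Pdk4, which restrains pyruvate oxidation and was the most abundant of the list, averaged 138 ± 23.0 TPM in denervated and 58.0 ± 18.2 TPM in control muscle (SD, n = 3 each). Its call as higher on the deposited scale (1.26, adjusted p = 0.000899) was lost with scaling (0.37, adjusted p = 0.309).

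Beside the 5 of 10 members, 16 of 18 tricarboxylic acid cycle enzymes, 23 of 24 nuclear-encoded respiratory chain subunits and 8 of 11 glycolytic enzymes fell, and 0 of each list rose. Their median log2 fold changes on the deposited scale were -0.75, -0.82 and -0.65, beside -0.29 for the members. Of all genes tested, 4.5% fell and 15.7% rose. Idh3a, the largest scaled fall of the cycle list, averaged 51.7 ± 4.51 TPM in denervated and 103 ± 4.80 TPM in control muscle, and Mdh2, its most abundant gene, 314 ± 26.5 TPM in denervated and 575 ± 52.7 TPM in control muscle. Idh3b (-0.95) and Sdhb (-0.97) had similar falls on the deposited scale. In the respiratory chain Cox7a1, Cox5a and Cyc1 had the largest scaled falls (-1.03, -1.02 and -0.96 on the deposited scale), and Atp5b, a subunit of ATP synthase and the most abundant, fell by 0.48. Of the glycolytic list, Eno3, Pgam2 and Ldha had the largest scaled falls (-1.34, -1.19 and -1.11 on the deposited scale), and Aldoa, the most abundant, fell by 0.97.

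The outer membrane and matrix genes, which include channels, import proteins and chaperones, had 2 of 11 that fell and 0 that rose. These counts stand beside 4.5% and 15.7% of all genes tested. The list's median log2 fold change was -0.01 on the deposited scale and -0.90 after scaling. The 2 were the channels Vdac1, the most abundant of the list, at 226 ± 22.7 TPM in denervated and 349 ± 16.7 TPM in control muscle, and Vdac3 (-0.68, adjusted p = 0.00353). With Vdac1 in place of Cs as the denominator, the 6 higher ratios and the lower ratio of Acaa2 kept their direction. Vdac1 and Cs had similar log2 fold changes on the deposited scale (-0.63 and -0.68), so this swap could hardly change a direction. Other genes of the list that changed less, such as Vdac2 (-0.01), were not used as a denominator. Differences between the lists were described, not tested.

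**Figure D4:**
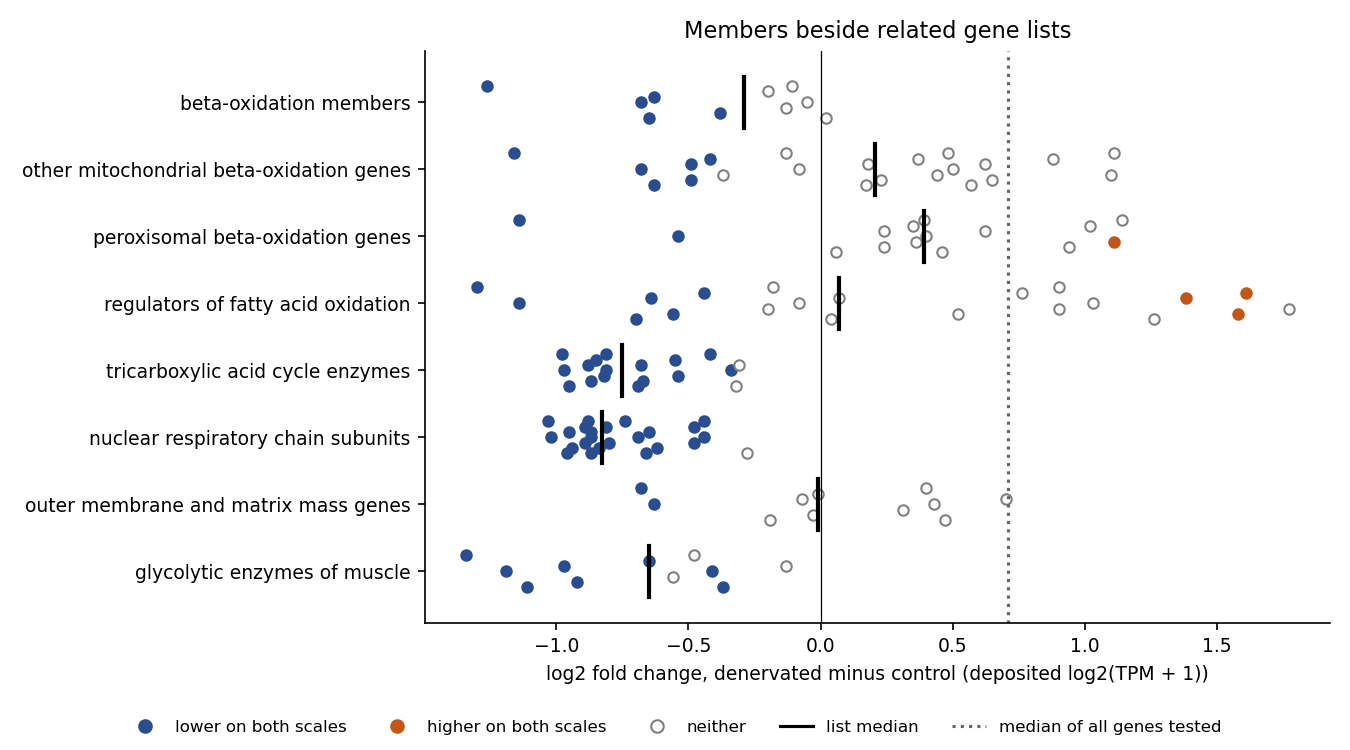
Log2 fold change on the deposited scale, denervated minus control (horizontal axis), of every tested gene of the 10 members and of 7 related lists, filled where called in one direction on both scales. Black bars mark list medians and the dotted line the median of all genes tested (0.71), and the members' median of -0.29 lies between those of the cycle enzymes (-0.75) and the outer membrane and matrix genes (-0.01).

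Markers of other cell types were counted in the same way, and of all genes tested 4.5% fell and 15.7% rose. Of 9 white adipocyte markers 6 rose and 0 fell, and their summed TPM was 263 to 488 in denervated and 47.3 to 123 in control libraries. Cfd, the most abundant of them, measured 197, 128 and 244 TPM in denervated and 16.2, 45.9 and 55.8 TPM in control libraries. Brown adipocyte markers summed to 20.3 to 33.7 TPM in denervated and 6.08 to 7.26 TPM in control libraries, of which Dio2, which muscle also expresses, made up 25.8, 16.6 and 21.2 TPM in denervated libraries, while Ucp1 reached at most 3.68 TPM. Of 3 brown markers tested, 1 rose (Dio2) and 1 fell (Ppara), and Elovl3 was not analysed here. Ppara, which is also counted among the regulators above, averaged 1.43 TPM in denervated and 2.91 TPM in control muscle. Adipocytes also carry mitochondria that oxidize fatty acids, and their part in the members' values was not tested.

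Of 10 muscle fibre markers 5 fell (Acta1, Ckm, Tnnt3, Casq1 and Pygm), beside 4.5% of all genes tested, and 0 rose, beside 15.7%. The other 5 were called higher on the deposited scale alone, where 69.9% of all genes tested were called higher. The list summed to 21309 to 27786 TPM in denervated and 23905 to 26924 TPM in control libraries. The endothelial list had 0 of 9 called on both scales, with sums of 80.7 to 115 TPM in denervated and 90.9 to 118 TPM in control libraries. After scaling, 8 of the 9 were called lower, beside 18.6% of all genes tested, and the list's median log2 fold change was -0.90. Its most abundant gene, Pecam1, averaged 21.8 ± 3.75 TPM in denervated and 21.2 ± 4.43 TPM in control muscle (SD, n = 3 each, as for the genes that follow). None of 7 fibroblast and none of 7 macrophage markers was called on both scales. On the deposited scale 4 and 6 of them were called higher, beside 69.9% of all genes tested. Their sums were 1008 to 2040.0 TPM (fibroblast) and 57.6 to 89.2 TPM (macrophage) in denervated libraries, against 565 to 1457 TPM (fibroblast) and 23.5 to 60.6 TPM (macrophage) in control libraries. The most abundant over the 6 libraries were Dcn, a matrix proteoglycan, at 403 ± 126 TPM in denervated and 257 ± 99.3 TPM in control muscle, and C1qb, a complement subunit, at 19.4 ± 5.37 TPM in denervated and 10.3 ± 4.52 TPM in control muscle. Schwann cells are the glia that ensheathe peripheral axons. Of 4 Schwann cell markers tested, 2 fell, and the list summed to 45.5 to 64.4 TPM in denervated and 71.7 to 158 TPM in control libraries. Pmp22, its most abundant gene, was not among the 2 and averaged 48.4 ± 10.8 TPM in denervated and 74.4 ± 32.1 TPM in control muscle. Of 5 erythroid markers, 1 fell (Hbb-bs, a beta globin and the most abundant, at 528 ± 214 TPM in denervated and 962 ± 379.8 TPM in control muscle), with sums of 808 to 1415 TPM in denervated and 932 to 2307 TPM in control libraries. After scaling, 5 of the 5 erythroid and 3 of the 4 Schwann cell markers were called lower, beside 18.6% of all genes tested. Of 6 cardiomyocyte markers, 4 (Nppa, Nppb, Myl7 and Ryr2) were not analysed here, and Tnni3 did not pass the filter on low values, at 0.55 to 2.15 TPM in denervated and 0.528 to 0.973 TPM in control libraries. The 1 tested, Myh6, a myosin heavy chain, rose and made up nearly all of the list's sum, which was 31.1 to 42.9 TPM in denervated and 3.43 to 4.35 TPM in control libraries. The list thus rests on 1 tested gene, and whether its rise came from cardiomyocytes or from muscle fibres was not tested. No marker analysed was listed at 0 in any library, and the part of any of these cells in the members' values was not tested.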

How the data were processed

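The authors deposited a table of log2 values for 13105 genes in 6 libraries, per the file headers, and 2 subsets of it that were not used here. Per the protocols in the labels, amplification used the Ovation RNA-Seq V2 system, and the product was turned into libraries with Nextera XT and read from both ends over 75 bases. Kallisto 0.42.1 and the mm10 build are named in the submitters' processing notes, and how transcripts were combined into genes is not stated in these sources. No header names the unit. The values were read as log2(TPM + 1), since TPM is what kallisto reports and no library's linear sum exceeds the fixed total of TPM. The listed genes hold 77.3% to 80.3% of that total in denervated and 68.8% to 70.4% in control libraries. The deposited signed fold score was not used, and the deposited p-values are quoted only where the authors' table is named. Counts are not in these files, so no interval from depth is given. The protocol is not stated to keep the strand, so reads of overlapping genes on opposite strands cannot be told apart.

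Genes with TPM of at least 1 in at least 3 libraries were tested with limma 3.58.1 under R 4.3.3 (trended eBayes, pseudocount of 1, Benjamini-Hochberg over all 12268 genes, threshold 0.05), on the deposited values and after median-of-ratios scaling. Fold changes refer to log2(TPM + 1), which understates those of low genes. Ratios within a library, of TPM + 1, were compared by exact two-sided permutation over 20 assignments, which does not use the pairing of muscles within mice. Alternatives changed the scaling, the pseudocount (0.1), the filter (none, or TPM of at least 5), the prior, the mouse term and the libraries included. Genes were matched by symbol, and 3 of 207 list entries by gene ID. Shared 31-base words were computed from GENCODE M21 transcripts. The labels number the mice, which pairs the muscles. Across genes, the deviations from the group means of a mouse's 2 libraries correlated at 0.312, 0.183 and 0.411 for mice 1, 2 and 3. All members are named. From each related list the text names the most abundant tested gene over the 6 libraries and, in each direction, up to 3 genes called on both scales with the largest scaled change, and from marker lists the most abundant gene. Cs is the denominator of ratios. Other genes named, such as those listed beside a count, were chosen after their values were seen. The members and lists were chosen with earlier results of these data known.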

Additional observations from a re-analysis of the deposited data

How the results depend on the processing

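The 5 members that fell remained the same 5 with a pseudocount of 0.1, without a filter, with TPM of at least 5, without a trend and with the replicate block. Leaving out 1 library or both libraries of a mouse left 4 or 5, and the one lost was Etfdh each time. No member was called higher on both scales in any alternative. After scaling, all 10 stayed lower in every alternative, with adjusted p of at most 0.0399, reached by Hadha when TPM was rescaled to one total without mitochondrially encoded genes. The deposited log2 fold change of Hadha reversed to -0.88 with median-of-ratios scaling, -0.61 with quantile normalization and -0.39 with that one total, and ran between -0.08 and 0.09 with libraries left out. Hadhb ran between -0.13 and 0.09. With libraries left out, ratios near 0 crossed it, from -0.10 to 0.08 for Cpt1b to Cs, -0.01 to 0.12 for Acadvl to Cs, -0.08 to 0.11 for Acadm to Cs, -0.00 to 0.15 for Hadha to Hadhb and -0.04 to 0.07 for Acadvl to Acadm. With Vdac1 as denominator, Acadvl stood at -0.00 and Acadm at -0.02.

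The number of genes called on the deposited scale, 9132, was 4202 with median-of-ratios scaling, 4272 with quantile normalization and 5854 with TPM of at least 5, which tests fewer genes. After scaling it was 4202, and 6786 with one total without mitochondrially encoded genes. With libraries left out it ran from 2061 to 4087, with fewer samples. With the mouse as replicate block, 9459 genes were called on the deposited scale and 4330 after scaling, and the paired fit changed no call of a member. For the changes with scaling the cause was not tested.

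Groups of 3 libraries limit the ratios to an exact p of 0.1, and the absence of counts leaves the depth of single values unknown. Replicates are 3 mice, each giving both groups.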
